A study of Mus musculus with 6 samples.

Results

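The TNF superfamily ligands described here are 9 genes (Tnf, Lta, Ltb, Tnfsf9, Tnfsf10, Tnfsf12, Tnfsf13, Tnfsf13b and Tnfsf14), chosen by name as ligands of this family and found by symbol in a count table of 24062 genes. Their RNA was sequenced from cultured mouse blood progenitors that a retrovirus had transformed with MLL-AF9, the product of a chromosome translocation found in acute myeloid leukemia. The starting cells were lineage-negative, that is, cleared of blood cells that display the surface proteins of a mature type. The 3 WT libraries came from A20+/+ cells and the 3 KO libraries from A20 f/f cells, in which loxP sites flank part of the gene for A20 (Tnfaip3). Every culture carried MLL-AF9 and a tamoxifen-activated Cre driven from the Rosa locus, which is active in nearly all cell types, grew with IL-6, IL-3 and SCF, and received 1 µM 4-hydroxytamoxifen for 48 h. The labels do not say whether replicates were separate cultures, animals or clones, so p-values cover only the variation among these 6 libraries, and that variation may be technical.

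TNF superfamily ligands are mostly made as membrane proteins that assemble into trimers. They act on neighbouring cells, or after cleavage as soluble factors, through receptors that switch on NF-κB, MAP kinases or cell death. Tnf is the main inflammatory ligand of macrophages, and the lymphotoxins Lta and Ltb are best known from lymphocytes and from the building of lymphoid organs. A20 is a ubiquitin-editing enzyme that restrains the NF-κB response to TNF, and both A20 and Tnf are themselves NF-κB target genes.

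Some limits of the comparison bear on every value below. Tnfaip3, which the KO label says was deleted, had 7.39, 8.67 and 8.24 CPM (a gene's reads per 1000000 counted reads, scaled between libraries with edgeR's TMM factors) under the WT label and 100.1, 74.1 and 79.1 CPM under the KO label, so it was higher in the libraries that should lack it. The counts are 1 value per gene, not per exon, so this level does not measure the deletion, and groups are named here by their labels. Xist ranged from 564 to 2109 CPM under the WT label and from 0 to 4.77 CPM under the KO label, and the Y-linked gene Ddx3y from 0 to 0.80 and from 78.5 to 89.2 CPM. Donor sex and the A20 label therefore cannot be told apart. In both groups replicate 1 stood apart from replicates 2 and 3 (Gapdh 2645 and 2716 CPM in the replicate 1 libraries, 167 to 254 CPM in the others), and KO-labelled replicates 2 and 3 were the most alike pair within a group (chi-square per degree of freedom 2.37, against 25.2 to 231 for the other pairs). Results are therefore also given for the replicate 1 libraries (the replicate 1 pair, 1 library per group) and for replicates 2 and 3 alone. The word pair marks only the shared replicate number, and these libraries are not known to be paired. The libraries held 16113320 to 25415274 counted reads, and 3 reads corresponded to 0.13 to 0.18 CPM.

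All 8 hematopoietic and myeloid markers had reads. Their summed level was 1959 to 2530 CPM under the WT label and 1647 to 2155 CPM under the KO label. Within that list 1 gene was called higher and 3 lower by edgeR, where 13.7% of all tested genes were called in each direction. The lower genes were Cd34 (597 to 632 against 1.17 to 1.99 CPM), Mpo (142 to 299 against 0.18 to 0.56 CPM) and Kit (307 to 403 against 100 to 103 CPM). The higher gene was the monocyte receptor gene Csf1r, with 2.84, 36.2 and 35.3 CPM under the WT label and 353, 134 and 134 CPM under the KO label. Markers of lymphocytes, which are a common source of several of these ligands, were low beside the hematopoietic and myeloid list. The T cell list (4 of 6 genes with any read, Cd3e and Cd8a at 0) summed to 7.18 to 13.0 CPM under the WT label and 4.83 to 7.98 CPM under the KO label, and the B cell list (2 of 5, Ms4a1 and Pax5 among those at 0) to 1.92 to 2.18 and 0.36 to 0.63 CPM. Under the WT label the T cell sum was almost all Lck. Lck was called lower (13.0, 7.06 and 7.30 against 3.20, 4.46 and 4.06 CPM, adjusted p = 0.028 by edgeR). Cd4 was called higher (0, 0.11 and 0 against 4.64, 0.65 and 0.66 CPM, adjusted p = 0.023 by edgeR). The NK cell list (3 of 4, Ncr1 at 0) summed to 0.50 to 1.39 and 1.13 to 1.47 CPM. Megakaryocyte markers (4 of 4 with reads) summed to 26.6 to 41.1 against 0.86 to 1.07 CPM, and mast cell or basophil markers (4 of 7, Tpsb2, Tpsab1 and Fcer1a at 0) to 14.7 to 25.5 against 3.65 to 6.45 CPM. The dendritic cell list (4 of 5, Siglech at 0) summed to 2.34 to 21.7 against 1.91 to 5.68 CPM. The part of these cell types in the ligand levels was not tested. In such bulk samples, fewer cells of a type and less RNA per cell cannot be told apart.

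Several of these ligands are neighbours in the genome. Ltb, Tnf and Lta lie side by side on chromosome 17, with 3060 bases between Ltb and Tnf and 1157 between Tnf and Lta. The upstream sequences of the 3 genes are printed because these adjacent genes gave very different read counts under the same conditions. That of Tnfsf14, which lies elsewhere on chromosome 17, is added as the ligand with the highest level in the WT-labelled libraries. Sequences are from RefSeq (build GRCm38.p6, the same assembly as mm10), where 7 of the 9 members had an entry, and are shown 5′ to 3′ on the gene's strand, up to the first annotated GENCODE start, which for Ltb lies upstream of the RefSeq start. Capitals mark matches to 4 motifs: the NF-κB consensus, AP-1 (TGANTCA) and PU.1 (GAGGAA) on either strand, and TATAAA on the coding strand.
Tnf (chr17:35202008-35202257, minus strand): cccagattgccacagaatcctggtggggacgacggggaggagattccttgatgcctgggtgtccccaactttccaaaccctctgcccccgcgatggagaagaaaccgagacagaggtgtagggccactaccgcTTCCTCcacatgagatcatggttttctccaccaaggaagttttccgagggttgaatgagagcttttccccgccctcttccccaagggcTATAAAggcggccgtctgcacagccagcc
Lta (chr17:35205352-35205601, minus strand): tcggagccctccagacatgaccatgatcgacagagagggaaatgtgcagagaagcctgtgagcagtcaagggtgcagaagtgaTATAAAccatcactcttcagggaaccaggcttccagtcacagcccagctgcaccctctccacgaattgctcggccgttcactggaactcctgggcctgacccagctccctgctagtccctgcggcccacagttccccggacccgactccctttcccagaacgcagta
Ltb (chr17:35194257-35194438, plus strand): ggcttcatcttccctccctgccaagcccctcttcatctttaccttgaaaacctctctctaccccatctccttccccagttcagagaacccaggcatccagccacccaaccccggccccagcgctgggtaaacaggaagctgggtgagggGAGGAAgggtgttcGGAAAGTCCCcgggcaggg
Tnfsf14 (chr17:57194182-57194431, minus strand): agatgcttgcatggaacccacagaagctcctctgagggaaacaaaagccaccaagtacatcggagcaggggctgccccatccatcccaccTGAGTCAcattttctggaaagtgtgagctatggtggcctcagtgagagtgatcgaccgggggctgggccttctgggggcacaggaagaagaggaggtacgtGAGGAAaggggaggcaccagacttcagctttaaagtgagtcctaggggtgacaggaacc

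In this window, searched from 250 bases before to 50 bases after the RefSeq start, Tnf had TATAAA from position −29 (counted from the RefSeq start) and a PU.1 match on the opposite strand from position −117. Lta had TATAAA from position −167. Ltb had a PU.1 match from position −101 and an NF-κB consensus match (GGAAAGTCCC as printed, opposite strand) from position −87, the only match to that consensus among the 7 members searched. Tnfsf14 held an AP-1 match (TGAGTCA) from position −160 and PU.1 matches from −59 and, past the printed stretch, 42, and Tnfsf13 and Tnfsf13b also held TGAGTCA. Of 32851 promoter windows of the same length, 8.46% held the NF-κB consensus, 7.81% AP-1, 28.3% PU.1 and 8.32% TATAAA. A match is only a description of the letters, and a window without one says nothing about the factor.

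Tnf mRNA is also known for its AU-rich element, a run of overlapping repeats after the stop codon that marks the message for decay. The annotated Tnf transcript held 5 copies of TTATTTATT there, 4 of them in this 30-base stretch, where capitals mark the copies.
Tnf (chr17:35199681-35199710, minus strand): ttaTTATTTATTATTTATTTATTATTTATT
Lta and Tnfsf13b had 1 copy each and the other 6 members 0. At least 1 copy was found in 7.74% of 19279 genes with an annotated region after the stop codon, and at least 4 copies in 0.332%.

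Of the 9 ligands, 8 passed the filter on low counts, and 3 of these were called higher and 1 lower in the KO-labelled libraries by edgeR's quasi-likelihood test. Tnf rose 11.4-fold, Tnfsf13b 5.37-fold and Tnfsf12 3.64-fold in mean CPM, and Tnfsf13 was 2.56-fold lower. Ltb, Tnfsf9, Tnfsf10 and Tnfsf14 did not pass, and Lta was at or near 0 reads throughout. The median log2 fold change of the 8 tested members was −0.22, beside −0.04 over all 12126 tested genes. The background of calls was high: 27.3% of all tested genes were called in either direction, 13.7% as higher and 13.7% as lower. The libraries of the groups did not overlap for 4 of the 8 members and for 47.6% of all tested genes.

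**Figure D1:**
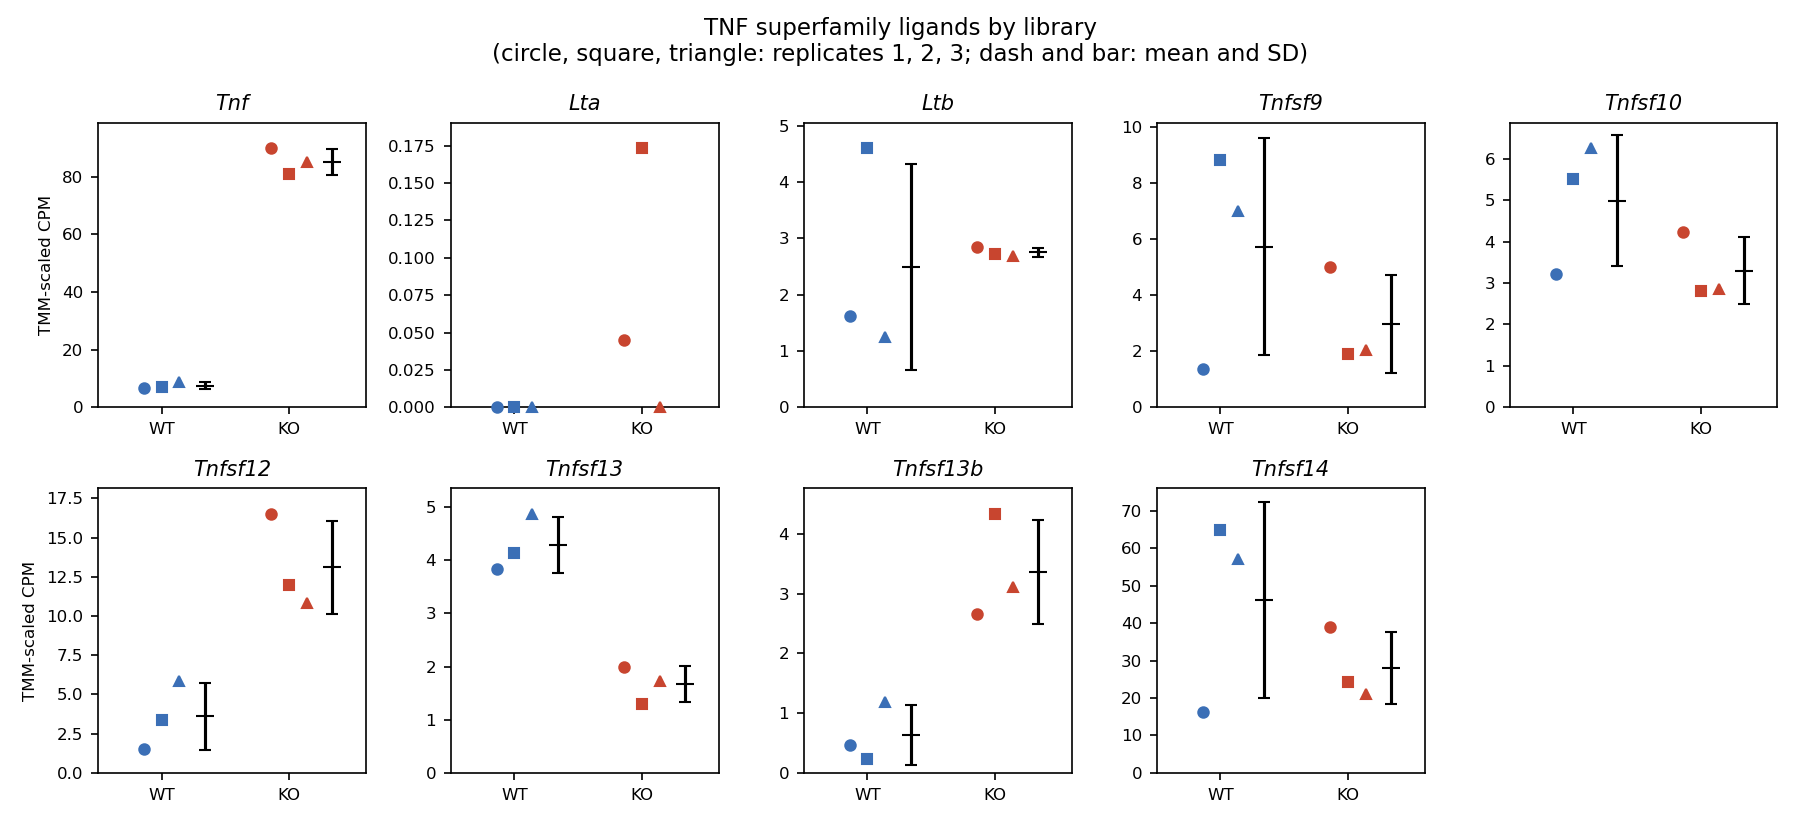
TMM-scaled CPM of the 9 ligands (vertical axes, each from 0) in the 3 WT-labelled (blue) and 3 KO-labelled (red) libraries; circles, squares and triangles are replicates 1, 2 and 3, and black dashes with bars give the mean and SD (not drawn for Lta, which had 0 to 4 reads). Tnf lies between 6.68 and 8.79 CPM under the WT label and between 80.8 and 89.8 CPM under the KO label, whereas Tnfsf9 and Tnfsf14 are lowest in WT-labelled replicate 1.

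Tnf (chr17:35199381-35202007), the founding inflammatory ligand of the family, had 6.68, 6.95 and 8.79 CPM under the WT label and 89.8, 80.8 and 84.9 CPM under the KO label. These values rest on 121 to 177 reads and 1423 to 1992 reads per library. Every KO-labelled library lay far above every WT-labelled library, and the spread within each group was small (7.47 ± 1.15 against 85.2 ± 4.47 CPM, SD, n = 3). Tnf thus gave a log2 fold change of 3.51 (SE 0.16, adjusted p = 3.04e-05 by edgeR with Benjamini-Hochberg adjustment over all tested genes). The replicate 1 pair gave 3.74 and replicates 2 and 3 alone 3.37, beside 3.51 over all 6 libraries. Leaving out any single library gave 3.44 to 3.64, and the call held in all 17 alternative settings.

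The lymphotoxin genes on either side of Tnf gave few reads. Lta (chr17:35203165-35205351), which forms soluble trimers or joins Ltb on the membrane, had 0 reads in all 3 WT-labelled libraries and 1, 4 and 0 reads in the KO-labelled ones. Its mean in the KO-labelled libraries, 0.073 CPM, lay below the level of 3 reads in any library, so no fold is given. Ltb (chr17:35194439-35196320), the membrane anchor of the lymphotoxin trimer, had 1.63, 4.59 and 1.24 CPM against 2.84, 2.73 and 2.69 CPM. The KO-labelled values lay inside the range of the WT-labelled ones. In the replicate 1 pair the log2 fold change was 0.79, and in replicates 2 and 3 alone −0.10. Over all 6 libraries the estimate lay between these values. Ltb gave a log2 fold change of 0.15 (SE 0.52, 95% interval −1.07 to 1.38, adjusted p = 0.86 by edgeR), so a change of about the size seen for Tnf lay outside its interval, while smaller changes in either direction lay inside it.

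The other tested genes around Tnf had smaller log2 fold changes than Tnf. Within 50 kb of a member, 25 other protein-coding genes were in the table and 19 were tested, with a median log2 fold change of 0.10. By edgeR 1 was called higher and 0 lower, where 13.7% of all tested genes were called in each direction. At an unadjusted p under 0.05 by edgeR the counts were 3 and 2, without a share over all genes to set beside them. DESeq2 called 3 and 2 (17% and 16.7% of all tested genes) and limma-voom 2 and 0 (14.3% and 12.9%). In the block around Tnf, Lst1, a gene of myeloid cells 6000 bases from Ltb, had 33.0, 77.5 and 55.2 CPM against 138, 100.5 and 95.6 CPM, with no overlap but an adjusted p of 0.0504 that missed the threshold by edgeR. Nfkbil1, on the far side of Lta, had a log2 fold change of 0.29 (adjusted p = 0.27 by edgeR). The called neighbour was C3, the central complement component, 9793 bases from Tnfsf14 (159, 473 and 536 against 2362, 1718 and 1659 CPM, log2 fold change 2.30, SE 0.45, adjusted p = 0.00998 by edgeR). Its call was lost with replicates 2 and 3 summed (adjusted p = 0.065 by edgeR). Leaving out WT-labelled replicate 1, 5 neighbours rose and 4 fell, and in a fit of replicates 2 and 3 these counts were 5 and 6. These counts are near the shares of all tested genes (22% and 20.8%, and 25.8% and 27.1%).

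**Figure D2:**
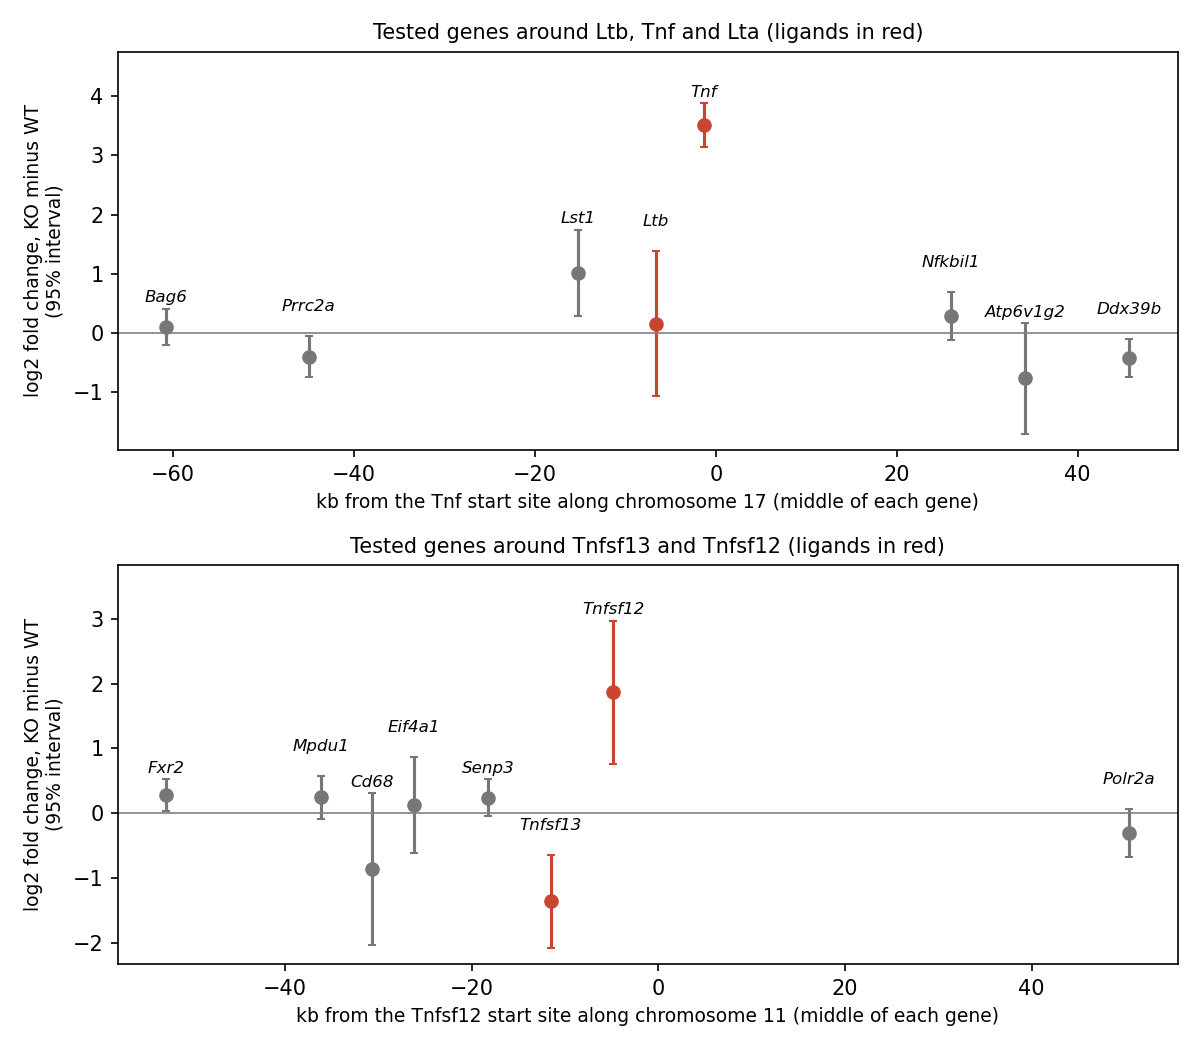
Log2 fold changes (KO-labelled minus WT-labelled, points, with 95% intervals as bars) of tested genes within 50 kb of Ltb, Tnf and Lta (upper panel) and of Tnfsf13 and Tnfsf12 (lower panel), against the distance of each gene's middle from the start site of Tnf or Tnfsf12 in kb; ligands are red, other genes grey. Tnf stands at 3.51 between Ltb at 0.15 and Nfkbil1 at 0.29, and Tnfsf12 at 1.87 lies beside Tnfsf13 at −1.35.

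Tnfsf12 and Tnfsf13, adjacent genes on chromosome 11 with 465 bases between them on the same strand, were called in opposite directions. Tnfsf12 (chr11:69686250-69695849) encodes TWEAK, a ligand that acts on tissue repair and inflammation through Tnfrsf12a. Its levels were 1.54, 3.39 and 5.86 CPM under the WT label and 16.5, 11.9 and 10.9 CPM under the KO label, without overlap. Tnfsf12 gave a log2 fold change of 1.87 (SE 0.47, adjusted p = 0.025 by edgeR). It was 3.40 in the replicate 1 pair and 1.28 in replicates 2 and 3 alone (adjusted p = 0.0075 by edgeR). WT-labelled replicate 1 was the lowest and KO-labelled replicate 1 the highest library. The call did not hold without WT-labelled replicate 2 (adjusted p = 0.090 by edgeR) or without KO-labelled replicate 1, 2 or 3 (0.091, 0.061 and 0.054).

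Tnfsf13 (chr11:69682846-69685784) encodes APRIL, a survival factor of plasma cells that myeloid cells make. It had 3.84, 4.13 and 4.87 CPM under the WT label and 1.98, 1.30 and 1.73 CPM under the KO label. All KO-labelled libraries lay below all WT-labelled ones, with a log2 fold change of −1.35 (SE 0.30, adjusted p = 0.0166 by edgeR). The replicate 1 pair gave −0.94 and replicates 2 and 3 alone −1.60. Without KO-labelled replicate 2 or 3 the adjusted p was 0.094 or 0.075 by edgeR, and the call was lost. Of the exonic bases of Tnfsf12 and Tnfsf13, 48.3% and 60.1% also belong to Tnfsfm13, a read-through gene model on the same strand that was not analysed here, and 13.5% of those of Tnfsf13 lie opposite an antisense gene. The strand setting of the counting is not given in the sources used here, so how such shared reads were assigned is uncertain for both genes.

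Tnfsf13b (chr8:10006467-10039072) encodes BAFF, a B cell survival factor that monocytes and macrophages release. Its level was low but separate between groups, at 0.46, 0.23 and 1.19 CPM (11, 4 and 24 reads) against 2.66, 4.33 and 3.10 CPM (59, 100 and 52 reads). Tnfsf13b gave a log2 fold change of 2.41 (SE 0.59, adjusted p = 0.023 by edgeR), with 2.47 in the replicate 1 pair and 2.33 in replicates 2 and 3 alone. Leaving out single libraries gave 2.02 (without WT-labelled replicate 2) to 3.24 (without WT-labelled replicate 3). Tnfsf13b did not pass when WT-labelled replicate 2 was left out (adjusted p = 0.058 by edgeR), nor without KO-labelled replicate 1, 2 or 3 (0.058, 0.098 and 0.071).

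For Tnfsf9, Tnfsf14 and Tnfsf10 the result depended on replicate 1. Tnfsf14 (chr17:57189492-57194177) encodes LIGHT, a ligand of the lymphotoxin β receptor and of HVEM. It had 16.3, 65.0 and 57.2 CPM under the WT label and 38.9, 24.2 and 20.9 CPM under the KO label. WT-labelled replicate 1 was the lowest of the 6 libraries, and the other WT-labelled libraries were the highest. Over all libraries it gave a log2 fold change of −0.72 (SE 0.50, 95% interval −1.89 to 0.45, adjusted p = 0.33 by edgeR). The replicate 1 pair gave 1.26, and replicates 2 and 3 alone gave −1.45 (SE 0.11, adjusted p = 1.37e-04 by edgeR). That fit rests on replicates 2 and 3 only, and those of the KO label were the most alike pair. Its SE and p-value therefore cover only the spread among these libraries.

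Tnfsf9 (chr17:57105325-57107757), the ligand of the costimulatory receptor 4-1BB, likewise had its lowest level in WT-labelled replicate 1. Its levels were 1.38, 8.84 and 7.0 CPM under the WT label and 5.00, 1.90 and 2.03 CPM under the KO label. Tnfsf9 gave a log2 fold change of −0.94 (SE 0.70, adjusted p = 0.37 by edgeR) over all libraries, 1.84 in the replicate 1 pair and −2.02 (SE 0.24, adjusted p = 7.66e-04 by edgeR) in replicates 2 and 3 alone. Of its exonic bases 14.9% lie opposite a predicted gene on the other strand. Tnfsf10 (chr3:27317028-27342427), which encodes the death ligand TRAIL, had 3.21, 5.51 and 6.26 CPM against 4.24, 2.81 and 2.86 CPM. It gave a log2 fold change of −0.59 (SE 0.35, adjusted p = 0.25 by edgeR), with 0.40 in the replicate 1 pair and −1.07 (adjusted p = 0.0075 by edgeR) in replicates 2 and 3 alone. Without WT-labelled replicate 1 all 3 genes passed (adjusted p = 0.012 for Tnfsf14, 0.040 for Tnfsf9 and 0.049 for Tnfsf10 by edgeR). Among the markers, Itgax of the dendritic cell list had 1.46, 18.5 and 21.3 CPM under the WT label. Its KO-labelled values were 4.87, 2.38 and 1.73 CPM. It was thus also lowest in WT-labelled replicate 1 and highest in WT-labelled replicates 2 and 3. The other genes of that list did not share this pattern. Xcr1, Zbtb46 and Ccr7 stayed at or below 0.98 CPM in each library, and Siglech was at 0. Outside that list, the neighbour gene Cd68 had the same order (36.1, 127 and 129 against 78.2, 39.8 and 42.4 CPM). So did Zfp36l1, a gene that controls Tnf mRNA (2.04, 11.8 and 14.5 against 3.74, 2.47 and 3.46 CPM). Itgam and Csf1r were also lowest in WT-labelled replicate 1 but highest in KO-labelled replicate 1. The order was thus not particular to a dendritic cell marker, and the part of any cell type in the 3 results was not tested. The replicate 1 pair has 1 library per group, and the difference between it and the other replicates was not tested.

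With only replicates 2 and 3 in the fit, 3 ligands rose and 4 fell, where 25.8% of all tested genes were called higher and 27.1% lower. Tnf, Tnfsf12 and Tnfsf13b were the higher and Tnfsf9, Tnfsf10, Tnfsf13 and Tnfsf14 the lower members. Leaving out WT-labelled replicate 1 gave the same counts, with 22% and 20.8% of all tested genes. Leaving out WT-labelled replicate 3 kept 3 higher and 1 lower (9.86% and 10.2% of all tested genes). By contrast, 1 ligand rose and 1 fell without WT-labelled replicate 2 (9.87% and 9.95%) or KO-labelled replicate 1 (8.91% and 9.49%). There were 1 higher and 0 lower by edgeR (3 and 1 at an unadjusted p under 0.05) without KO-labelled replicate 2 (7.6% and 7.41% of all tested genes) or 3 (7.89% and 7.54%), with a replicate block (8.16% and 8.53%) and with replicates 2 and 3 summed (4.32% and 4.12%). DESeq2 called 3 and 1 (17% and 16.7% of all tested genes), as did limma-voom (14.3% and 12.9%).

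**Figure D3:**
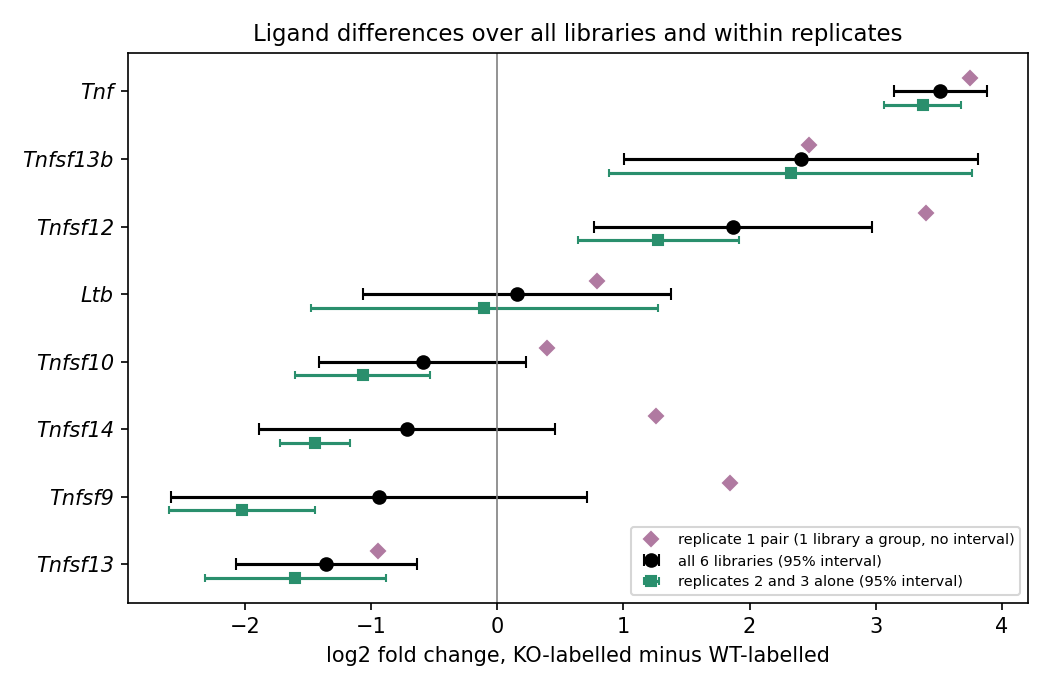
Log2 fold changes (horizontal axis, KO-labelled minus WT-labelled) of the 8 tested ligands over all 6 libraries (black circles), in replicates 2 and 3 alone (green squares), both with 95% intervals, and in the replicate 1 pair (purple diamonds, 1 library per group, no interval). The 3 estimates of Tnf lie between 3.37 and 3.74, whereas those of Ltb, Tnfsf9, Tnfsf14 and Tnfsf10 fall on either side of 0.

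Per length of exonic sequence (CPM per kb of all annotated exons), the order of the ligands differed between the groups. In the WT-labelled libraries Tnfsf14 led with 24.99 ± 14.2 CPM per kb (SD, n = 3), above Tnf with 4.56 ± 0.70 without overlap. Tnfsf9 (4.45 ± 3.01), Tnfsf13 (2.61 ± 0.32), Tnfsf12 (2.37 ± 1.43), Ltb (1.64 ± 1.21) and Tnfsf10 (0.95 ± 0.30 CPM per kb) followed, and from Tnf to Tnfsf10 each overlapped the next in the order. Tnfsf13b (0.091 ± 0.073 CPM per kb) lay below all of these, and Lta was at 0. In the KO-labelled libraries Tnf led with 52.0 ± 2.73 CPM per kb. Tnfsf14 (15.2 ± 5.17) and Tnfsf12 (8.65 ± 1.97 CPM per kb) came next, each apart from its neighbours in the order. Tnfsf9 (2.31 ± 1.36) overlapped Ltb (1.81 ± 0.05), and Tnfsf13 (1.02 ± 0.21), Tnfsf10 (0.63 ± 0.15) and Tnfsf13b (0.49 ± 0.13 CPM per kb) each overlapped the next, all far above Lta.

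Among the other ligands of the family, most had almost no reads. Of 9 such genes 1 passed the low-count filter. This was Tnfsf8, the ligand of CD30, with 3.13, 15.3 and 9.88 CPM under the WT label and 0, 0.043 and 0 CPM under the KO label. It had 540 reads in the first group and 1 in the second, a ratio of 0.00184 (95% counting interval 4.64e-05 to 0.0103, counting error only), and its adjusted p was 0.0012 by edgeR. The fall held in all 17 alternative settings. Cd40lg, Cd70, Tnfsf18 and Eda had 0 reads in every library. The ligand of the death receptor Fas, Fasl, had 0.060 CPM in a single library, and Tnfsf4, Tnfsf11 and Tnfsf15 stayed at or below 0.30 CPM in each library.

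The receptor genes of these ligands were led by Tnfrsf9. Of 13 receptor genes 10 were tested, 4 were called higher and 0 lower by edgeR, and the median log2 fold change was 0.44. Over all tested genes edgeR called 13.7% higher and 13.7% lower. At an unadjusted p under 0.05 by edgeR the counts were 5 and 1, without a share over all genes to set beside them. DESeq2 called 4 and 1 (17% and 16.7% of all tested genes) and limma-voom 4 and 0 (14.3% and 12.9%). Tnfrsf9, the receptor 4-1BB, rose from 0.13, 1.72 and 1.19 CPM to 40.0, 34.6 and 36.0 CPM (log2 fold change 5.23, SE 0.66, adjusted p = 0.0016 by edgeR). Every KO-labelled library was far above the WT-labelled ones, and the call held in all 17 alternative settings. Its ligand gene Tnfsf9 did not pass over all libraries, as given above.

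For Tnf itself, the receptor gene Tnfrsf1b, whose product TNFR2 binds membrane-bound TNF best, rose from 115, 151 and 163 CPM to 203, 246 and 238 CPM (log2 fold change 0.68, SE 0.17, adjusted p = 0.023 by edgeR). Tnfrsf1a, which encodes the death-domain receptor TNFR1, had 97.7 to 135 CPM under the WT label and 104.0 to 106 CPM under the KO label (log2 fold change −0.21, 95% interval −0.56 to 0.15, adjusted p = 0.36 by edgeR). The TRAIL receptor gene Tnfrsf10b (7.17 ± 2.32 to 13.6 ± 1.04 CPM, adjusted p = 0.038 by edgeR) and the TRAIL decoy receptor gene Tnfrsf23 (7.90 ± 4.82 to 29.4 ± 10.8 CPM, adjusted p = 0.042 by edgeR) also rose. With 5 libraries the folds were of similar size while the calls were often lost. Tnfrsf1b did not pass when the WT-labelled replicate 2 library, or that of KO-labelled replicate 2 or 3, was left out (log2 fold changes 0.71, 0.63 and 0.66, adjusted p = 0.067, 0.091 and 0.085 by edgeR). Tnfrsf10b and Tnfrsf23 did not pass when any library except WT-labelled replicate 1 was left out (log2 fold changes 0.75 to 0.98 and 1.56 to 2.28, against 0.92 and 1.90 over all libraries, and adjusted p = 0.092 to 0.13 and 0.063 to 0.14 by edgeR).

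The remaining receptors did not pass. Ltbr, the lymphotoxin β receptor, had 84.9 to 99.4 against 109 to 141 CPM without overlap (adjusted p = 0.096 by edgeR), and Tnfrsf14, the HVEM receptor of LIGHT, 15.6 to 29.9 against 11.3 to 17.3 CPM (adjusted p = 0.074 by edgeR). The TWEAK receptor gene Tnfrsf12a was at 3.27 to 3.59 and 2.51 to 3.20 CPM, and Tnfrsf13b, which encodes the BAFF and APRIL receptor TACI, at 21.4 to 23.7 and 21.3 to 23.8 CPM. The other BAFF receptors, Tnfrsf13c and Tnfrsf17, stayed at or below 0.32 CPM. Without WT-labelled replicate 1, and likewise in a fit of replicates 2 and 3, the list had 4 higher and 2 lower receptors, where 22% and 20.8%, and in the second fit 25.8% and 27.1%, of all tested genes were called. Leaving out any single library other than WT-labelled replicate 1 gave 1 or 2 higher and 0 lower receptors. In those fits 7.6% to 9.87% of all tested genes were called higher and 7.41% to 10.2% lower.

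**Figure D4:**
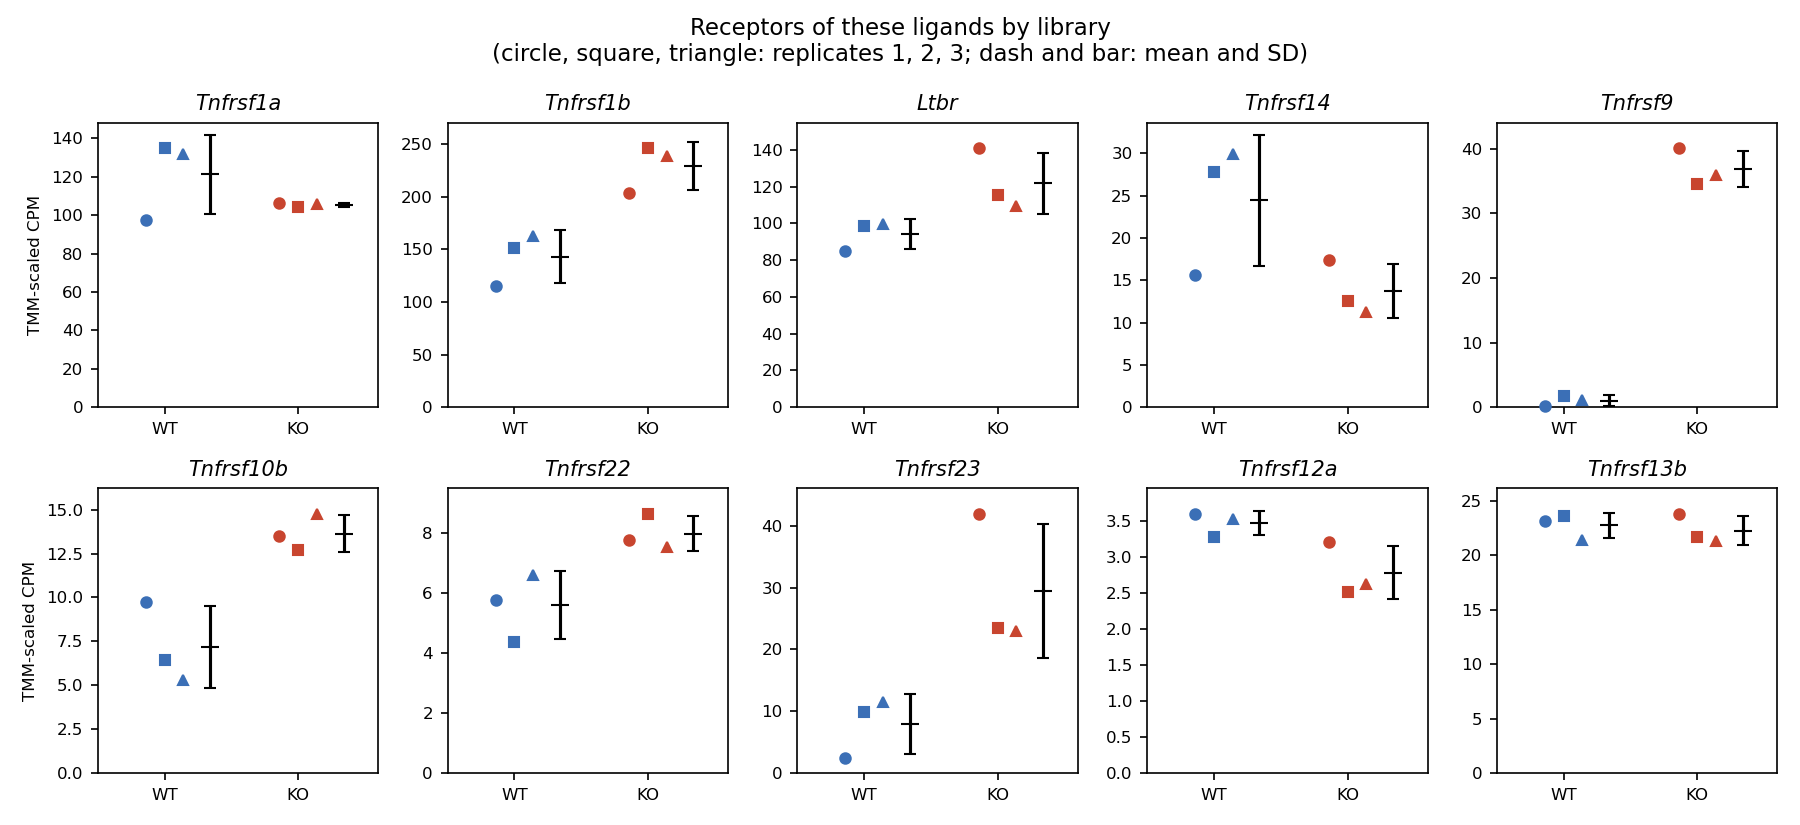
TMM-scaled CPM (vertical axes, each from 0) of the 10 tested receptors in the WT-labelled (blue) and KO-labelled (red) libraries; circles, squares and triangles are replicates 1, 2 and 3, and black dashes with bars give the mean and SD (n = 3). Tnfrsf9 moves from at most 1.72 to at least 34.6 CPM, while Tnfrsf13b lies between 21.3 and 23.8 CPM in all 6 libraries.

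Of 9 genes for the release of the ligands 7 were tested, with a median log2 fold change of 0.02. By edgeR 1 was called higher and 0 lower, where 27.3% of all tested genes were called. At an unadjusted p under 0.05 by edgeR the counts were 1 and 1, without a share over all genes to set beside them. DESeq2 called 1 and 1 (17% and 16.7% of all tested genes) and limma-voom 1 and 0 (14.3% and 12.9%). Adam17, the sheddase that cuts TNF from the membrane, had 411 to 583 CPM under the WT label and 447 to 513 CPM under the KO label, with a log2 fold change near 0 (95% interval −0.43 to 0.42, adjusted p = 0.99 by edgeR). Its partner gene Rhbdf2, which encodes iRhom2 and carries the sheddase to the surface of myeloid cells, rose from 29.5 ± 7.39 to 49.1 ± 2.37 CPM (adjusted p = 0.032 by edgeR). In a fit of replicates 2 and 3 the list had 1 higher and 3 lower genes (25.8% and 27.1% of all tested genes). The call of Rhbdf2 was lost without WT-labelled replicate 3 or any KO-labelled library (adjusted p = 0.078 to 0.099 by edgeR).

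Of 12 genes that control Tnf mRNA, which include proteins that bind AU-rich elements such as the one printed above, 2 were called higher, 2 lower and 8 not called by edgeR, with a median log2 fold change of −0.09. DESeq2 called 2 and 3 (17% and 16.7% of all tested genes) and limma-voom 2 and 2 (14.3% and 12.9%). A share of 33.3% called by edgeR is near the 27.3% of all tested genes. Mapkapk2, the kinase that inactivates the decay factor tristetraprolin and so prolongs the life of Tnf mRNA, rose from 425 ± 23.3 to 932 ± 47.8 CPM (adjusted p = 0.0017 by edgeR). Zfp36, the tristetraprolin gene, was at 64.8 to 106 CPM under the WT label and 95.7 to 103 CPM under the KO label (log2 fold change 0.13, adjusted p = 0.68 by edgeR). Its relative Zfp36l2, also a decay factor, fell from 394 ± 65.9 to 189 ± 33.0 CPM (adjusted p = 0.0067 by edgeR). Tia1, a translational repressor that binds the Tnf message, fell from 85.1 ± 21.3 to 51.9 ± 1.55 CPM, and Zc3h12a, the RNase Regnase-1, rose from 16.2 ± 4.68 to 27.3 ± 1.32 CPM (adjusted p = 0.035 and 0.045 by edgeR). Tia1 lost its call without any library except WT-labelled replicate 1 (adjusted p = 0.099 to 0.11 by edgeR). Zc3h12a lost its call without WT-labelled replicate 2 or any KO-labelled library (adjusted p = 0.0996 to 0.13 by edgeR). In a fit of replicates 2 and 3, 2 genes of the list were higher and 4 lower (25.8% and 27.1% of all tested genes).

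The genes whose pattern over the 6 libraries was most like that of Tnf included Myo7a and Rasal3 (Pearson correlation of log2 CPM 0.9996 and 0.9995 among 11342 genes compared). Myo7a had mean levels of 7.50 and 177 CPM and Rasal3 9.94 and 87.1 CPM in the WT-labelled and KO-labelled libraries. For Tnfsf12 they were Pja2, Ndfip2 and Mmp2 (0.9991, 0.9987 and 0.9985). Their means in the WT-labelled and KO-labelled libraries were 35.7 and 51.3, 32.8 and 44.8, and 0.085 and 0.78 CPM. The first mean of Mmp2 lay below the level of 3 reads. For Tnfsf14 they were Fsd2, Fbxl5 and Arrdc1 (0.9965, 0.9957 and 0.9949), with means of 0.93 and 0.36, 95.1 and 65.5, and 65.8 and 58.6 CPM. A high correlation does not mean a change of like size. The 6 points share libraries and fall into 2 groups, so a like step between groups alone gives a high value, and these correlations are a description.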

How the data were processed

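RNA was sequenced from 6 libraries, 3 with the label A20 WT and 3 with A20 KO, made with a stranded TruSeq mRNA kit, per the labels' protocols. The deposited values are unnormalized read counts of each gene in each library. The authors used, per the submitters' processing notes, FastQC 0.11.7, HISAT2 2.0.5 and featureCounts 1.5.2 with mm10. For annotation and strandedness, the setting was not given in the sources used here. Of 24062 genes, 7384 had no read.

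The tests ran in edgeR 4.0.16 under R 4.3.3 (TMM, default low-count filter, robust quasi-likelihood test, Benjamini-Hochberg threshold 0.05 over 12126 tested genes). The scripts were tested on simulated data. Intervals are 95% from the SE. Alternatives were other scalings and filters, DESeq2 1.42.0, limma-voom (limma 3.58.1), a replicate block, and leaving out or summing libraries. Positions, exon lengths, overlaps and bases after the stop codon came from GENCODE for the same assembly, read with Python 3.11.15; promoters came from RefSeq, where 7 of 9 members matched.

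The members and lists were chosen with earlier results of these data known. Named were all members, Tnfaip3 and, per list, up to 4 called genes in order of p (the 2 most abundant where none was called); other genes of the lists were chosen after seeing their values. For members with a mean of at least 5 CPM the 3 most correlated genes were named, leaving out predicted gene models; 1 of these is not reported here.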

Additional observations from a re-analysis of the deposited data

How the results depend on the processing

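By edgeR 3 ligands were called higher and 1 lower, where 13.7% of all tested genes were called in each direction. Leaving out each library in turn gave 1 to 3 higher and 0 to 4 lower. In those fits 7.6% to 22% of all tested genes were called higher and 7.41% to 20.8% lower. A replicate block gave 1 higher and 0 lower (8.16% and 8.53% of all tested genes). Replicates 2 and 3 summed into 1 sample beside replicate 1 gave the same counts (4.32% and 4.12%). For both, 3 and 1 passed at an unadjusted p under 0.05 by edgeR, without a share over all genes to set beside them. The tools DESeq2 (17% and 16.7% of all tested genes) and limma-voom (14.3% and 12.9%), run without these changes, called 3 and 1. A fit of replicates 2 and 3 gave 3 higher and 4 lower (25.8% and 27.1%). Under the block, 989 genes in all were higher and 1034 lower, against 1660 and 1656. The labels do not say what a replicate number marks. Deviations of same-numbered libraries from the group means correlated at 0.030, −0.019 and 0.055, and not every library correlated best with its own number, so the numbers were not taken to pair libraries, although Gapdh was high in both replicate 1 libraries. The block gave Tnf a log2 fold change of 3.52 (adjusted p = 0.0019 by edgeR). Tnfsf12, Tnfsf13 and Tnfsf13b did not pass with it (0.073, 0.061 and 0.064) or with replicates 2 and 3 summed (0.093, 0.17 and 0.069).

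Ltb changed sign without WT-labelled replicate 1 (−0.07), without WT-labelled replicate 3 (−0.17), and with only replicates 2 and 3 (−0.10); leaving out single libraries gave −0.17 to 0.93, with no call in any of the 17 alternatives. No other tested member reversed in these 17 alternatives, nor did Tnfaip3 or any list gene named for its call. The replicate 1 pair is not among the alternatives. In it Tnfsf9, Tnfsf14 and Tnfsf10 had the opposite sign (1.84, 1.26 and 0.40). List genes named without a call, such as Adam17 and Zfp36, were not followed across these settings. Of the genes in the lists, Tnfrsf9, Tnfsf8 and Tnfaip3 passed in all 17 alternatives, and C3, Mapkapk2 and Zfp36l2 lost their call in 1 (replicates 2 and 3 summed). Tnfrsf1b lost it in 5, Tnfrsf10b and Rhbdf2 in 7, Tnfrsf23 and Tia1 in 8 and Zc3h12a in 9. Scaling by library totals alone was among the settings that ended the calls of Tnfrsf1b, Rhbdf2, Tia1 and Zc3h12a (adjusted p = 0.053 to 0.083 by edgeR). The cause was not tested. Without a low-count filter the members' median log2 fold change was 0.16, against −0.22, and Lta could be tested and did not pass (adjusted p = 0.24 by edgeR). At 0 to 4 reads per library, a difference in Lta was not detectable at this depth.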
